A study of Homo sapiens with 9 samples.

Results

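BRD9, BRD7 and 8 further genes that encode subunits of the SWI/SNF chromatin remodelling complexes were followed in A375 cells exposed to TP-472. The 10 genes were taken by name from the 26475 gene symbols of the deposited table, and comprised the compound's targets BRD9 and BRD7, the ATPases SMARCA2 and SMARCA4, and SMARCB1, SS18, ARID1A, ARID2, PBRM1 and PHF10. A375 cells are an established human melanoma line that carries mutant BRAF. TP-472 is a chemical probe that binds the bromodomains of BRD9 and BRD7. RNA was sequenced after 24 h in 3 libraries each from cells given DMSO as the vehicle, TP-472 at 5 µM and TP-472 at 10 µM, and the design text calls the samples biological replicates without giving their origin, so that p-values measure the spread between these libraries. All groups came from this 1 cell line, and no inactive analog of TP-472 was among the samples.

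SWI/SNF complexes use ATP to slide or evict nucleosomes and so open DNA to transcription factors. Human cells assemble them in a canonical form (cBAF, with ARID1A or ARID1B), a polybromo form (PBAF, with ARID2, PBRM1, PHF10 and BRD7) and a non-canonical form (ncBAF, with BRD9 and GLTSCR1 or GLTSCR1L), each built around SMARCA4 or SMARCA2. Bromodomains are pockets that read acetylated lysines on histones and other proteins. TP-472 occupies that pocket in the protein, so the transcript levels of BRD9 and BRD7 do not measure how far the proteins were inhibited.

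Promoter windows were read to show the DNA in front of the 2 target genes and of 3 members whose transcripts fell at 10 µM, SMARCA4, ARID1A and PHF10. The RefSeq table on GRCh38.p14 holds 250 bases before and 50 after a gene's start, and 9 of the 10 members were matched, all but ARID2. BRD9, SMARCA4, SS18 and PBRM1 had 2 windows each and SMARCA2 had 4. For each gene only the window nearest to the start of its principal transcript was read. The window of BRD9 lies on the minus strand at chr5:892752-893051, that of BRD7 on the minus strand at chr16:50368939-50369238, that of SMARCA4 on the plus strand at chr19:10960780-10961079, that of ARID1A on the plus strand at chr1:26695765-26696064 and that of PHF10 on the minus strand at chr6:169724451-169724750. They are written 5′ to 3′ on the strand of the gene, with capitals for the GC box GGGCGG and the ETS core CCGGAAG on either strand.
BRD9: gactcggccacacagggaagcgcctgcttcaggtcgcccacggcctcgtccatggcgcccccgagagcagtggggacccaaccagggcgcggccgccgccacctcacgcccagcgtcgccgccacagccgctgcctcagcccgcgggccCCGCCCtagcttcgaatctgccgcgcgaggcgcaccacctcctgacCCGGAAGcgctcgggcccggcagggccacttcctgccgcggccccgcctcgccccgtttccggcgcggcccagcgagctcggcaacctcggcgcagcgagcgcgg
BRD7: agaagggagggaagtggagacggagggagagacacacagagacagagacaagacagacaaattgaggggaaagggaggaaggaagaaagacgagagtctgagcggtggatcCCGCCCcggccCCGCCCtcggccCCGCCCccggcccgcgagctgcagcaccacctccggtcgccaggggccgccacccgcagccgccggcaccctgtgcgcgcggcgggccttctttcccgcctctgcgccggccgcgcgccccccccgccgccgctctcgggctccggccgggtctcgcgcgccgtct
SMARCA4: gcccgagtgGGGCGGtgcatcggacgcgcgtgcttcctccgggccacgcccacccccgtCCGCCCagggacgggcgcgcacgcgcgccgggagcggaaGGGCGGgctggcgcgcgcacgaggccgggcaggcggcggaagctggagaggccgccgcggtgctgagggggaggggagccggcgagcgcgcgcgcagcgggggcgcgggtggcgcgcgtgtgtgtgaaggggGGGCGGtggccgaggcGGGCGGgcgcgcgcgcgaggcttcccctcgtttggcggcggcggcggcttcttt
ARID1A: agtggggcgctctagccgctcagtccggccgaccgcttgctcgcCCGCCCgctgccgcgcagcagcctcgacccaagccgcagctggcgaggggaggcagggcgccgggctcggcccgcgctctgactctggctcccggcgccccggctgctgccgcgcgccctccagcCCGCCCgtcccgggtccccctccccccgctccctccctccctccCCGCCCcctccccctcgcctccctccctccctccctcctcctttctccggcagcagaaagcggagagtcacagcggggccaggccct
PHF10: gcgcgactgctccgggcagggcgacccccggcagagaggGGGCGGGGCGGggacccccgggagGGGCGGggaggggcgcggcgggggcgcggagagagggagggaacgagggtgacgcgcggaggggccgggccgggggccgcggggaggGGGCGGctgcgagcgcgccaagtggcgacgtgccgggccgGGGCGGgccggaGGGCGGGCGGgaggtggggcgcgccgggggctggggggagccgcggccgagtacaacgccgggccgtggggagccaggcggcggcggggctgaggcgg
The GC box, a motif of SP1 and KLF factors, was found in 8 of the 9 member windows and in 45.0% of all 35116 windows of that length, with 7 matches in PHF10, some overlapping, 5 in SMARCA4, 3 each in BRD7 and ARID1A and 1 in BRD9. The ETS core was found in 1 member window, that of BRD9, and in 10.3% of all windows. Among 3 other motifs searched on both strands, CCAAT was found in 2 member windows (34.6% of all windows), the E-box CACGTG in 1 (7.26%) and the E2F site TTTCCCGC in 1 (1.63%). The windows of BRD9, BRD7, SMARCA4, ARID1A and PHF10 held between 73.3% and 85.3% G and C, against a median of 58.7% over all windows. SMARCA2 lay at the other end, with 43.0% G and C and no GC box in the window at the start of its principal transcript. That window (chr9:2021695-2021994, plus strand) lies inside the gene, whose annotated start is at 1980290, and is 1 of 4. The other windows of SMARCA2 do not enter the member counts. A match is a run of letters and not a measured binding site. The windows of PHF10 and SMARCA4 lie 445 and 205 bases from the start of the principal transcript used for the gene's length.

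The libraries held 42483091 to 51298130 expected counts, and the members' counts in a library ran from 929 (ARID2 in 10 µM replicate 1) to 16691 (SMARCA4 in 5 µM replicate 2). One library stood apart. In 10 µM replicate 1, length and GC content of the transcript explained 11.7% of the variance of the deviations from the group, and longer transcripts were lower in it (rank correlation across genes, which are not independent replicates, -0.49). The share was 5.52% and 5.47% in 10 µM replicates 2 and 3, whose deviations are taken from the same group mean and had rank correlations with length of 0.40 and 0.38, and 0.178% to 0.561% in the DMSO and 5 µM libraries. Calls of the members and counts of the gene lists at 10 µM are therefore given with and without 10 µM replicate 1. Single genes outside the members are given with all libraries unless stated. Of 9 melanocyte lineage markers 5 were above 1 CPM (read counts scaled to the size of the library), led by SOX10 at 417 CPM in DMSO, whereas MLANA, TYR, DCT and TYRP1 were below it. The list summed to between 664 and 678 CPM in the DMSO libraries, between 612 and 615 CPM with 5 µM and between 506 and 554 CPM with 10 µM. The difference lay mainly in ERBB3, a receptor of the EGFR family named here after its values were seen, whose mean was 215 CPM in DMSO and 107 CPM at the higher dose and which was the only one of the 7 markers tested to pass the test, while SOX10 was at 391 CPM at 10 µM. The 6 markers of dedifferentiated melanoma were all present, led by AXL at 523 CPM in DMSO, with sums of 1055 to 1082, 879 to 882 and 970 to 1053 CPM. The sums hide opposite moves, as in JUN (mean 37.0 CPM in DMSO, 92.1 at 10 µM) and SOX9 (30.4 and 13.3), named after their values were seen. In the test used below, 3 of the 6 fell and 1 rose at 10 µM (18.0% and 16.4% of all genes tested). At 5 µM 3 fell and 0 rose (5.81% and 4.4%). Leukocyte, epithelial and endothelial lists summed to at most 7.17, 12.5 and 3.70 CPM in any library, with CD3E at 0. The part of these shifts in the results below was not tested, and in a bulk sample fewer cells of a type and less RNA per cell cannot be told apart.

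At 10 µM, 4 of the 10 members fell and none rose. ARID2 fell by 38.4%, ARID1A fell by 29.6%, PHF10 fell by 29.1% and SMARCA4 fell by 18.9%, that is 2 PBAF subunits, a cBAF subunit and an ATPase of all 3 forms. In the quasi-likelihood test of edgeR (p-values adjusted by Benjamini and Hochberg), 18.0% of the 16417 genes tested fell at 10 µM and 16.4% rose. The members' median log2 fold change was -0.25, against 0.01 over all genes tested. At 5 µM no member passed the test in either direction, where 5.81% of genes fell and 4.4% rose, and the members' median was -0.09. Only PHF10 had an unadjusted p under 0.05 at 5 µM, and DESeq2 called 1 member there, PHF10, as lower (8.91% of genes lower and 7.41% higher by DESeq2), while limma-voom called 0 (6.36% and 3.67%). At 10 µM DESeq2 called 5 members lower (19.7%) and 1, BRD9, higher (19.7%). The calls depended on the fit. With 10 µM replicate 1 left out, 5 members fell (background 25.8%) and 1 rose (23.0%) at 10 µM, 3 fell (17.6%) and 1 rose (16.5%) at 5 µM, and 4 were lower (15.4%) and 0 higher (8.8%) at 10 µM than at 5 µM. These included the 4 members called with all libraries. With the length and GC trend removed, 4 members fell (18.8%) and 0 rose (22.1%) at 10 µM, with SMARCA2 called in place of SMARCA4, 1 fell (9.7%) and 0 rose (8.75%) at 5 µM, and 2 were lower (7.16%) and 0 higher (6.3%) between the doses. In fits of only the groups compared, 3 members fell (14.4%) and 0 rose (12.7%) at 10 µM, 3 fell (20.7%) and 1 rose (19.3%) at 5 µM, and 0 were lower (1.38%) or higher (0.712%) between the doses. With a fold change of at least 1.5 asked for as well, 1 member, ARID2, was called at 10 µM (19.1% of genes in either direction), 0 at 5 µM (4.87%) and 0 between the doses (4.01%).

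**Figure D1:**
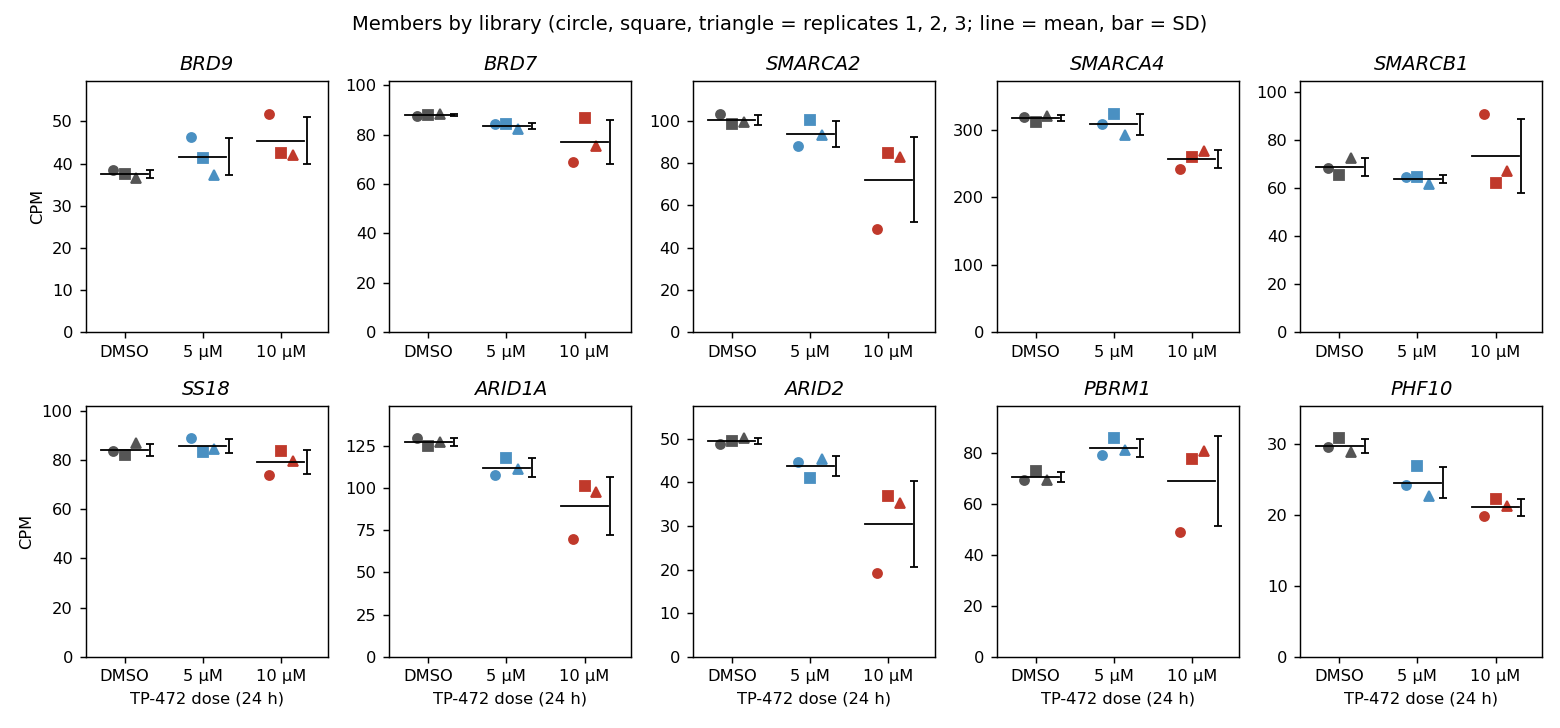
Level of each of the 10 members in every library, in CPM on an axis from 0, by group (DMSO, 5 µM and 10 µM TP-472 for 24 h), with circles, squares and triangles for replicates 1, 2 and 3, a line for the mean and a bar for the SD (n = 3). The 10 µM circle of ARID2, SMARCA2, PBRM1 and ARID1A lies well below the other 10 µM points, and that of BRD9 and SMARCB1 above them.

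BRD9 encodes the bromodomain protein that defines ncBAF and is a direct target of TP-472. The gene lies at chr5:850291-892824 on the minus strand (GENCODE 29, GRCh38). It measured 38.6, 37.5 and 36.6 CPM in DMSO, 46.2, 41.4 and 37.3 CPM at 5 µM and 51.8, 42.5 and 41.9 CPM at 10 µM. All 3 libraries at 10 µM were above all DMSO libraries, whereas 5 µM replicate 3 lay within the DMSO range. The log2 fold change was 0.27 ± 0.11 (SE) at 10 µM, with a 95% interval of 0.03 to 0.51 and an adjusted p of 0.0763, and 0.15 ± 0.11 at 5 µM (adjusted p = 0.466). Leaving out 10 µM replicate 1, the highest library, gave 0.16 at 10 µM (adjusted p = 0.0913). By DESeq2, BRD9 passed the threshold at 10 µM (log2 fold change 0.28, adjusted p = 0.0448). With the length and GC trend removed it did not pass the test at that dose.

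BRD7, the bromodomain subunit of PBAF and the other target, lies at chr16:50313487-50368934 on the minus strand. Its level was 87.7, 88.0 and 88.4 CPM in DMSO, 84.5, 84.2 and 82.2 CPM at 5 µM and 68.9, 86.5 and 75.5 CPM at 10 µM. Every treated library was below the lowest DMSO library, and replicate 2 at 10 µM was the closest to it. The log2 fold change was -0.19 ± 0.09 at 10 µM (95% interval -0.39 to -0.0015, adjusted p = 0.111) and -0.08 ± 0.09 at 5 µM (adjusted p = 0.681). Without 10 µM replicate 2 the gene passed the test, with a log2 fold change of -0.29 (adjusted p = 0.0169), and without replicate 1 it was -0.12 (adjusted p = 0.0817). With the length and GC trend removed, BRD7 did not pass the test at 10 µM, and its change between the doses turned positive. Of the exonic length of BRD7, 42.4% is shared with genes on the opposite strand, mainly ADCY7, and the strand setting of the counting is unknown. ADCY7 itself fell at 10 µM, by 0.55 on the log2 scale (adjusted p = 0.000603), from 51.1 ± 0.622 to 34.9 ± 3.01 CPM (SD, n = 3), and its part in the level of BRD7 was not tested.

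The ratio of BRD9 to BRD7 within a library needs no scaling between libraries. It was 0.440, 0.426 and 0.414 in DMSO, 0.547, 0.492 and 0.454 at 5 µM and 0.753, 0.491 and 0.556 at 10 µM. Both doses lay above DMSO without overlap. The log2 ratio differed from DMSO by 0.22 at 5 µM and by 0.47 at 10 µM, each with p = 0.1 in a two-sided exact permutation test, the smallest p that 3 against 3 libraries allow. With the 6 treated libraries in 1 group the difference was 0.34 (exact permutation p = 0.0714, adjusted over 4 gene pairs 0.167, smallest possible p 0.0119). The difference at 10 µM was 0.29 without 10 µM replicate 1. The principal transcripts measure 2156 nt (BRD9) and 5370 nt (BRD7), and the ratio was not adjusted for length or GC.

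The ATPases hydrolyse ATP to move nucleosomes and are mutually exclusive within a complex. SMARCA4 (BRG1), at chr19:10960825-11079426 on the plus strand, was the most abundant member per length, at 54.6 ± 0.768 CPM per kb of transcript in DMSO (SD, n = 3), 3.19 times SMARCA2 (BRM). It measured 318, 311 and 319.5 CPM in DMSO, 308, 323 and 291 CPM at 5 µM and 241, 259.8 and 268 CPM at 10 µM. The 10 µM libraries were all below those of the other groups. SMARCA4 fell at 10 µM by 0.30 ± 0.07 on the log2 scale (adjusted p = 0.0079), and by 0.26 against 5 µM (adjusted p = 0.0470). The call between the doses was lost with DESeq2-type or upper-quartile factors, with no filter, with the replicate block, in a fit of only these groups and without any one of 7 libraries (adjusted p up to 0.226), and with the length and GC trend removed the difference was -0.02 (adjusted p = 0.809). At 5 µM its log2 fold change was -0.04 (95% interval -0.20 to 0.11). The fall at 10 µM was 0.26 without 10 µM replicate 1 (adjusted p = 8.8e-05). After removal from each library of the trend over transcript length and GC, the log2 fold change at 10 µM was 0.0050 (adjusted p = 0.951) and the call was lost. That trend was fitted to deviations from the mean of all libraries. Its removal therefore also takes out any difference between the groups that follows length or GC. The transcript holds 61.4% G and C, the highest share among the members.

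SMARCA2 lies at chr9:1980290-2193624 on the plus strand. It measured 103, 98.7 and 99.4 CPM in DMSO, 88.0, 100.2 and 93.2 CPM at 5 µM and 49.0, 84.8 and 82.7 CPM at 10 µM. All 10 µM libraries were below the others, with replicate 1 far below its group. The log2 fold change at 10 µM was -0.48 ± 0.17 (95% interval -0.86 to -0.09, adjusted p = 0.0572) and at 5 µM -0.10 ± 0.17 (adjusted p = 0.800). SMARCA2 fell by 0.27 ± 0.05 once 10 µM replicate 1 was left out (adjusted p = 0.000851), and with the length and GC trend removed it fell by 0.35 (adjusted p = 0.0102). In 6 of 9 libraries its expected count was not whole, as RSEM gives where reads match more than 1 gene. The log2 ratio of SMARCA2 to SMARCA4 differed from DMSO by -0.14 over both doses (exact permutation p = 0.512, two-sided), and by -0.0022 at 10 µM without replicate 1.

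SMARCB1, a core subunit that holds cBAF and PBAF to the nucleosome and is absent from ncBAF, and SS18, which is part of cBAF and ncBAF, did not pass the test in any comparison. SMARCB1 (chr22:23786931-23838008, plus strand) measured 68.2, 65.4 and 72.7 CPM in DMSO, 64.7, 64.8 and 61.7 CPM at 5 µM and 91.0, 62.2 and 67.0 CPM at 10 µM. The single value of 91.0 CPM, from replicate 1, set the sign of its log2 fold change at 10 µM, which was 0.09 (95% interval -0.19 to 0.38) with that library and -0.09 without it. On the opposite strand DERL3 shares 17.7% of the exonic length of SMARCB1. At 5 µM the libraries of SMARCB1 were all below DMSO, with a log2 fold change of -0.11 (95% interval -0.40 to 0.18). SS18 (chr18:26016253-26091217, minus strand) measured 83.6, 82.2 and 87.0 CPM in DMSO, 88.8, 83.4 and 84.6 CPM at 5 µM and 73.9, 83.5 and 79.7 CPM at 10 µM. Its groups overlapped throughout, with log2 fold changes of 0.02 at 5 µM (95% interval -0.14 to 0.19) and -0.09 at 10 µM (95% interval -0.25 to 0.07). SS18 exceeded its paralog SS18L1 by 3.07 to 4.27 times in counts, and their log2 ratio differed from DMSO by -0.07 over both doses (exact permutation p = 0.583, two-sided).

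ARID1A, the DNA-binding subunit that defines cBAF together with its paralog ARID1B, lies at chr1:26693236-26782110 on the plus strand. It measured 129.5, 125.0 and 127.5 CPM in DMSO, 107.5, 118 and 111 CPM at 5 µM and 69.9, 101.4 and 97.8 CPM at 10 µM. The 3 groups were ordered by dose without overlap. ARID1A fell by 0.51 ± 0.12 on the log2 scale at 10 µM (adjusted p = 0.0112) and had a log2 fold change of -0.18 ± 0.12 at 5 µM (adjusted p = 0.435). In the fit that left out 10 µM replicate 1, the fall at 10 µM was 0.36 (adjusted p = 1.6e-05) and 5 µM also passed the test, at -0.18 (adjusted p = 0.0037). With the length and GC trend removed the change at 10 µM was -0.23 (adjusted p = 0.0074). The count ratio of ARID1A to ARID1B was between 1.90 and 2.03 in DMSO and between 1.99 and 2.22 in treated libraries, a log2 difference of 0.09 (exact permutation p = 0.0833, two-sided, adjusted 0.167).

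ARID2, PBRM1 and PHF10 are PBAF subunits, and they did not move alike. ARID2, the DNA-binding subunit, lies at chr12:45729665-45908040 on the plus strand and measured 48.8, 49.6 and 50.1 CPM in DMSO, 44.7, 41.0 and 45.3 CPM at 5 µM and 19.2, 36.9 and 35.3 CPM at 10 µM. The groups were ordered by dose without overlap, and 10 µM replicate 1 was 0.531 times the mean of replicates 2 and 3, the lowest such ratio of the members. ARID2 fell by 0.70 ± 0.20 on the log2 scale at 10 µM (adjusted p = 0.0214). That call was lost without any one of DMSO replicates 1, 2 or 3 (adjusted p = 0.0554 to 0.0626) and in a fit of only the DMSO and 10 µM libraries (0.0617). Without 10 µM replicate 1 the fall was 0.46 (adjusted p = 1.8e-05) and 5 µM also passed the test, at -0.18 (adjusted p = 0.0183).

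PHF10, a PHD finger subunit specific to PBAF, lies at chr6:169703905-169725566 on the minus strand and had the shortest transcript of the members, at 1719 nt. It measured 29.5, 30.7 and 28.9 CPM in DMSO, 24.1, 26.8 and 22.6 CPM at 5 µM and 19.8, 22.1 and 21.3 CPM at 10 µM. The groups were ordered by dose without overlap, and the 10 µM libraries were close together. PHF10 fell by 0.50 ± 0.09 on the log2 scale at 10 µM (adjusted p = 0.0023), by 0.46 without 10 µM replicate 1 and by 0.65 with the length and GC trend removed. At 5 µM the log2 fold change was -0.28 ± 0.09 (95% interval -0.48 to -0.08, adjusted p = 0.0844), and it passed the test without 10 µM replicate 1 (adjusted p = 0.0077). Its expected count was not whole in any of the 9 libraries, as RSEM gives where reads match more than 1 gene.

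PBRM1, the polybromo subunit with several bromodomains, lies at chr3:52545352-52685917 on the minus strand. It measured 69.6, 73.1 and 69.6 CPM in DMSO, 79.3, 85.8 and 81.1 CPM at 5 µM and 48.9, 77.6 and 81.0 CPM at 10 µM. All 5 µM libraries and 10 µM replicates 2 and 3 were above DMSO, and 10 µM replicate 1 was far below it. The log2 fold change was 0.21 ± 0.16 at 5 µM (95% interval -0.14 to 0.57) and -0.03 ± 0.16 at 10 µM (95% interval -0.39 to 0.32). Without 10 µM replicate 1, PBRM1 passed the test upwards at both doses, at 0.21 (adjusted p = 0.0022) and 0.16 (adjusted p = 0.0176).

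Counted by overlap, 6 members had all 10 µM libraries below all DMSO libraries (background 26.0%) and 1 had them all above (23.4%). At 5 µM 5 members lay wholly below DMSO (25.0%) and 1 wholly above (23.7%). Between the doses, 5 members were lower at 10 µM than at 5 µM without overlap (16.2%) and 0 higher (12.1%), while the test called 1 of them, SMARCA4 (5.53% of genes called lower, 2.87% higher), a call lost under most of the alternatives. The doses share the DMSO libraries, so the log2 fold changes against DMSO are not independent of each other.

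**Figure D2:**
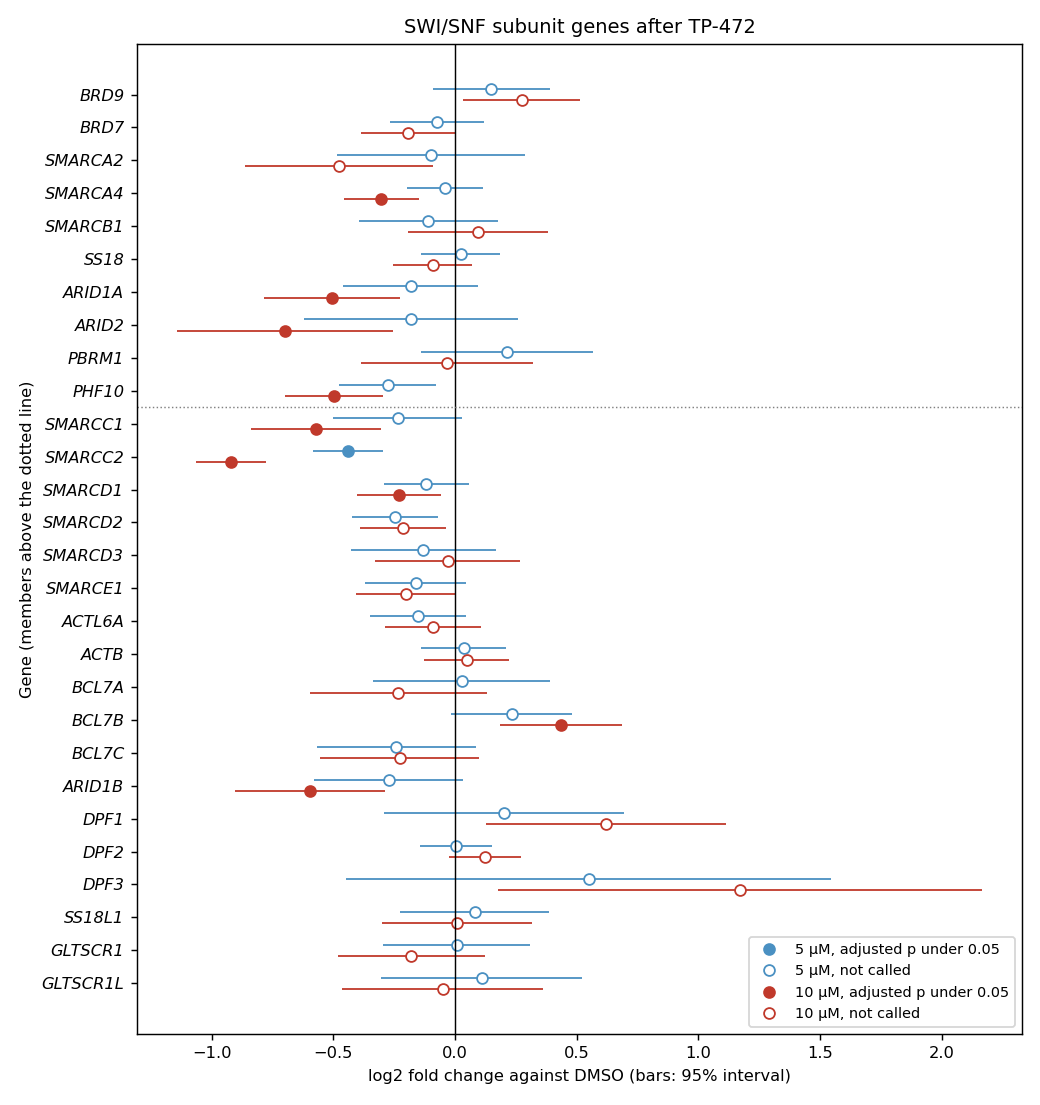
Log2 fold change against DMSO of the 10 members (above the dotted line) and 18 other SWI/SNF subunit genes, at 5 µM (blue) and 10 µM (red), with 95% intervals and filled points for an adjusted p under 0.05. At 10 µM the filled member points are SMARCA4, ARID1A, ARID2 and PHF10, all below 0, and at 5 µM SMARCC2 is the only filled point.

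**Figure D3:**
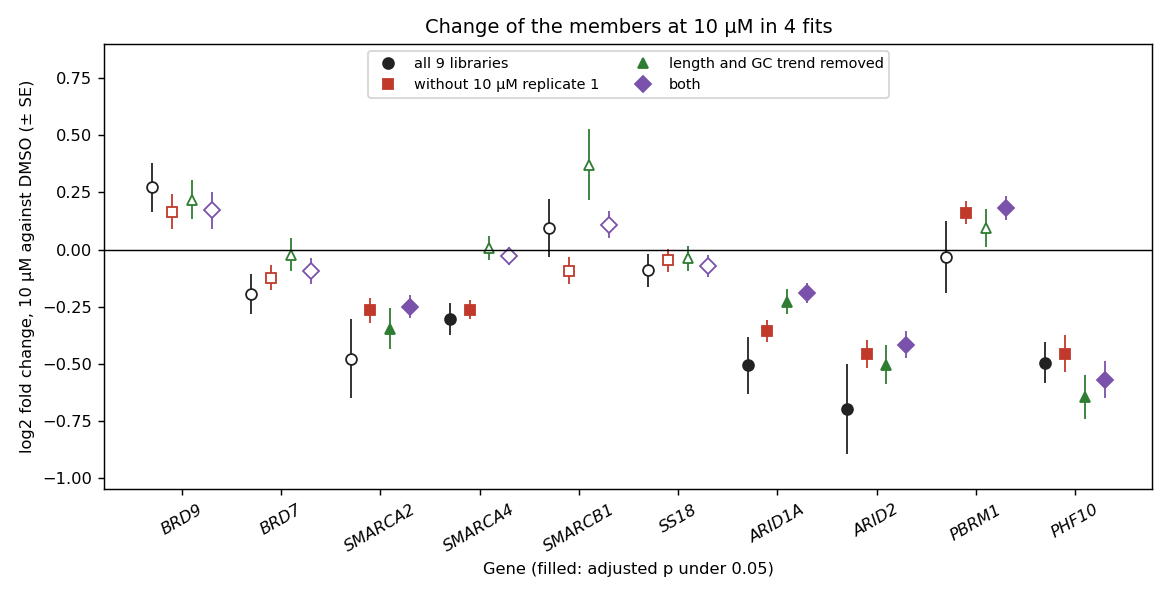
Log2 fold change of the members at 10 µM against DMSO (± SE) with all 9 libraries, without 10 µM replicate 1, with the length and GC trend removed, and with both, filled where the adjusted p was under 0.05. ARID1A, ARID2 and PHF10 are filled and below 0 in all 4 fits, SMARCA4 is at about 0 once the trend is removed, and PBRM1 is above 0 in the other 3 fits.

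The members differed in how far 10 µM replicate 1 departed from replicates 2 and 3. Its level was below their mean for 8 of the 10 members, down to 0.531 times for ARID2 with a transcript of 8642 nt, 0.585 times for SMARCA2 (5867 nt), 0.617 times for PBRM1 (5071 nt) and 0.702 times for ARID1A (8583 nt). It was above the mean for BRD9, at 1.23 times with a transcript of 2156 nt, and for SMARCB1, at 1.41 times. The principal transcript of SMARCB1 is 5210 nt in the annotation, but its shortest consensus coding transcript is 1730 nt. SMARCA4 was at 0.914 times with a transcript of 5791 nt, and BRD7 at 0.850 times (5370 nt). PHF10, with the shortest transcript (1719 nt), was at 0.912 times, and SS18 (3414 nt) at 0.906 times. Among the 18 other subunits tested, 10 µM replicate 1 was below the mean of replicates 2 and 3 for 8 and above it for 10. Whether length, RNA quality or another property of that library lay behind these departures was not tested.

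**Figure D4:**
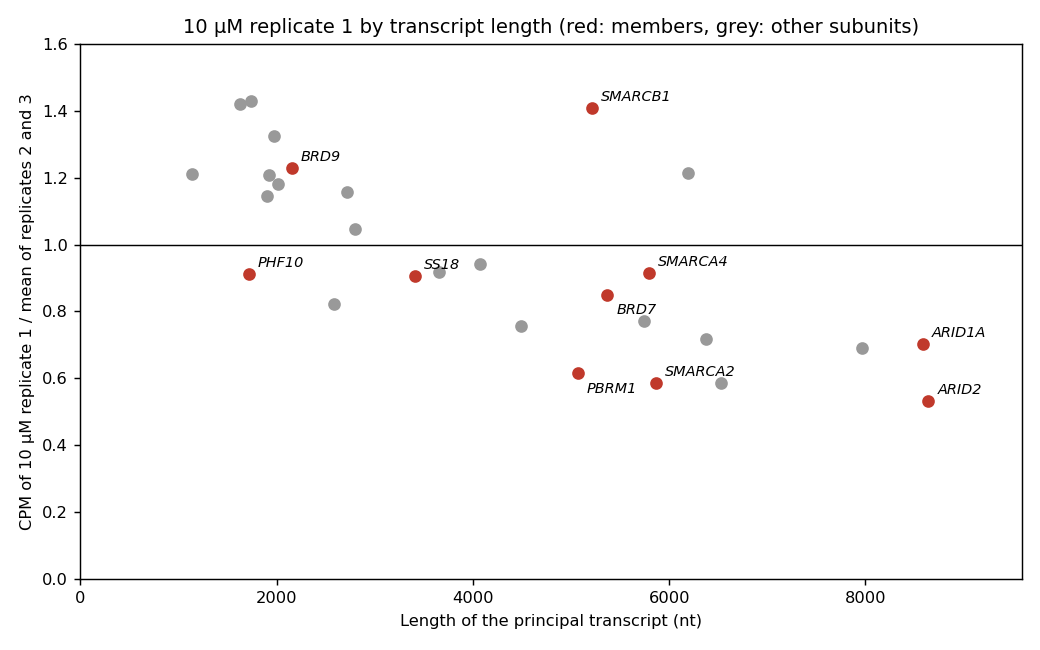
CPM of 10 µM replicate 1 divided by the mean of replicates 2 and 3, against the length of the principal transcript in nucleotides, for the members (red) and the other tested subunits (grey). Points for ARID2 and ARID1A, the longest transcripts among the members, lie at 0.531 and 0.702, and BRD9 lies at 1.23. PHF10, the shortest, lies at 0.912.

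Per length, the members in DMSO followed SMARCA4 in the order SS18 (24.7 ± 0.718 CPM per kb), BRD9 (17.4 ± 0.449), PHF10 (17.3 ± 0.550), SMARCA2 (17.1 ± 0.425), BRD7 (16.4 ± 0.0696), ARID1A (14.8 ± 0.264), PBRM1 (14.0 ± 0.405), SMARCB1 (13.2 ± 0.714) and ARID2 (5.73 ± 0.0757). The ranges of mean ± SD of BRD9, PHF10 and SMARCA2 overlapped, as did those of PBRM1 and SMARCB1. These levels use the longest principal transcript. With the shortest consensus coding transcript, SS18, BRD7 and SMARCB1 were at 45.9, 41.1 and 39.8 CPM per kb, above every member except SMARCA4 at 61.6, so the order rests on the choice of transcript.

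Of 19 other SWI/SNF subunit genes, ACTL6B, a neuronal actin-like subunit, was at 0 in every library and 18 were tested. At 10 µM 4 of them fell (18.0% of all genes tested) and 1 rose (16.4%). SMARCC2, a scaffold subunit on which the complexes are assembled, measured 174, 170.3 and 168 CPM in DMSO, 124, 128 and 126 CPM at 5 µM and 86.6, 94.5 and 89.4 CPM at 10 µM. Its groups were ordered by dose without overlap, and it fell by 0.44 ± 0.06 on the log2 scale at 5 µM (adjusted p = 0.0024), by 0.92 ± 0.06 at 10 µM (adjusted p = 6.2e-06) and by 0.48 between the doses (adjusted p = 0.0021). It was the only one of the 18 called at 5 µM. The related scaffold SMARCC1 fell from 254 ± 11.8 to 171 ± 31.0 CPM at 10 µM (SD, n = 3), by 0.57 on the log2 scale (adjusted p = 0.0049). Its 10 µM libraries measured 135.5, 184.9 and 192.5 CPM, with replicate 1 the lowest. ARID1B fell by 0.60 (adjusted p = 0.0081), and SMARCD1, an accessory core subunit, by 0.23 (adjusted p = 0.0429), a call that was lost without any one library other than 10 µM replicates 1 and 2. The 10 µM libraries of ARID1B measured 33.2, 46.9 and 49.1 CPM, again with replicate 1 the lowest. BCL7B, a small subunit of all 3 forms, rose by 0.44, from 54.1 ± 2.75 to 73.1 ± 12.4 CPM (adjusted p = 0.0136). Its 10 µM libraries measured 87.5, 65.7 and 66.2 CPM, and the rise was 0.28 without replicate 1 (adjusted p = 0.000547) and did not pass the test without DMSO replicate 2 (0.39, adjusted p = 0.0657). The median over the 18 was -0.14 at 10 µM and -0.06 at 5 µM. Without 10 µM replicate 1, 7 of them fell (25.8% of all genes) and 1 rose (23.0%) at 10 µM, and 6 fell (17.6%) and 1 rose (16.5%) at 5 µM.

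The ncBAF partners of BRD9 did not pass the test. GLTSCR1 had log2 fold changes of 0.0067 at 5 µM (95% interval -0.29 to 0.31) and -0.18 at 10 µM (-0.48 to 0.12), and GLTSCR1L of 0.11 (-0.30 to 0.52) and -0.05 (-0.47 to 0.36). DPF2, the cBAF reader subunit, had 0.12 at 10 µM (95% interval -0.02 to 0.27), and SMARCE1, a core subunit, -0.20 (-0.41 to 0.0034). SMARCE1 passed the test without 10 µM replicate 1, at -0.30 (adjusted p = 0.00027).

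Other readers and remodellers were counted for comparison. Of 34 other bromodomain genes tested, 2 rose and 5 fell at 10 µM (16.4% and 18.0% of all genes), with a median of -0.17, and 8 rose and 11 fell without 10 µM replicate 1 (23.0% and 25.8%). The smallest p-values were those of ZMYND8, a reader of acetylated histones that fell by 0.93 (204 ± 1.91 to 107 ± 13.5 CPM), and of BRD2, a BET family protein that rose by 0.66 (148 ± 4.31 to 233 ± 10.6 CPM). Of 39 subunits of the ISWI, CHD, NuRD and INO80 families and related remodellers, 2 rose and 15 fell at 10 µM against the same shares of all genes, and 6 rose and 19 fell without 10 µM replicate 1. The median with all libraries was -0.19, and the smallest p-values were those of MTA1 (-0.71) and CHD3 (-0.78), both NuRD subunits (adjusted p = 4.4e-05 and 7.7e-05).

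Genes with the pattern most like the target genes were sought among 9826 genes of at least 10 CPM on average, by the root mean square difference of centred log2 CPM over the 9 libraries. For BRD9 the nearest were C11orf73 (0.0433), FLG-AS1 (0.0457) and MIB2 (0.0461), against a root mean square of 0.153 for BRD9 itself. For BRD7 they were RAD23B (0.0362), SERINC3 (0.0375) and NSMAF (0.0377), against 0.114 for BRD7 itself.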

How the data were processed

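A375 cells were profiled by strand-specific (dUTP) RNA sequencing in 9 libraries, 3 per group. The authors deposited expected counts per gene symbol, which RSEM had estimated and which carry no scaling between libraries. The submitters' processing notes name Bowtie2 2.1.0, RSEM 1.2.15 and the build hg38, while the annotation, any filter and the strand setting were not given in the sources used here. For RNA selection, the methods describe oligo-dT purification and the design text depletion of ribosomal RNA.

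Expected counts, of which 10.6% to 13.8% per library were not whole numbers, were rounded and tested in edgeR 4.0.16 (R 4.3.3) with TMM factors, the default filterByExpr filter (16417 genes), 1 quasi-likelihood fit of the 3 groups and Benjamini-Hochberg adjustment. Calls were made at an adjusted p under 0.05. CPM used TMM-scaled library sizes. Paralog ratios were compared by exact permutation with 0.5 added to each count. Scripts were tested on simulated data. Library totals and the members' counts are given in the results, and no interval for counting error is attached to CPM. Coordinates, lengths and overlaps came from GENCODE 29 on GRCh38, and promoters from RefSeq on GRCh38.p14.

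Alternatives were upper-quartile and DESeq2-type factors, DESeq2 1.42.0, 2 other filters, limma-voom (limma 3.58.1), a replicate block, only the groups compared, each library left out, a fold limit of 1.5 and removal of a length and GC trend (splines of 4 degrees of freedom, values known for 93.3% of tested genes). The trend was fitted to each library's deviations from the mean of all libraries in the fit, so group differences that follow length or GC are removed with it. Named genes were the 10 members, other subunits that passed the test at either dose and at most 6 that did not, the 2 genes of each comparison list with the smallest p at 10 µM, and the 3 genes nearest in pattern to BRD9 and to BRD7. The members and lists were chosen with earlier results of these data known. Tables were made with Python 3.11.15, pandas 2.3.3, numpy 2.4.6, scipy 1.17.1 and matplotlib 3.10.9.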

Additional observations from a re-analysis of the deposited data

How the results depend on the processing

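Leaving out 10 µM replicate 1 added member calls and removed none, whereas removing the length and GC trend ended the calls of SMARCA4 at 10 µM and between the doses, and the cause was not tested. Calls are counts of genes at an adjusted p under 0.05. DESeq2-type and upper-quartile factors each gave 2 other subunits up at 10 µM and 0 members lower at 10 µM than at 5 µM. Over all 16417 genes, these factors gave 2788 and 3028 up at 10 µM and 839 and 787 lower between the doses. Without a filter, 0 members were lower between the doses (861 of 21422 genes). With a filter of 1 CPM in 3 libraries, 2 other subunits rose at 10 µM (2802 of 13982 genes). DESeq2 gave 1 member and 2 other subunits down at 5 µM, and 1 member and 3 other subunits up at 10 µM. A fold limit of 1.5 left 1 member and 2 other subunits down and 0 other subunits up at 10 µM, 0 other subunits down at 5 µM, and 0 members and 0 other subunits lower between the doses. With the length and GC trend removed, 1 member was down and 1 other subunit up and 4 down at 5 µM, 2 other subunits were up at 10 µM, and 2 members and 2 other subunits were lower between the doses. Fits of only the groups compared gave 1 member up and 3 down and 1 other subunit up and 7 down at 5 µM, 3 other subunits up at 10 µM, and 0 members lower between the doses. Removing the trend and 10 µM replicate 1 together, an alternative chosen after seeing the data, gave 1 member up and 3 down and 1 other subunit up and 6 down at 5 µM, 1 member up, 3 other subunits up and 8 down at 10 µM, and 3 members and 2 other subunits lower between the doses. Over all 16745 genes, that fit gave 2855 up and 2914 down at 5 µM. At 10 µM it gave 4037 up and 4179 down, and between the doses 2401 lower.

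With each library left out in turn, member calls ranged from 0 to 1 up and 0 to 3 down at 5 µM, from 0 to 1 up and 3 to 6 down at 10 µM, and from 0 to 4 lower between the doses. Those of the other subunits ranged from 0 to 1 up and 1 to 6 down at 5 µM, from 0 to 3 up and 3 to 7 down at 10 µM, and from 1 to 3 lower between the doses. Over all genes tested (16745 to 16887), calls ranged from 263 to 2770 up and 410 to 2951 down at 5 µM. At 10 µM they ranged from 1645 to 3854 up and 2127 to 4316 down. Between the doses 388 to 2576 genes were lower. The log2 ratio of SS18 to SS18L1 at 10 µM ranged from -0.17 to 0.061. The call of SMARCA4 between the doses held without 10 µM replicate 1 or 3 and was lost without any other library.

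The signs that turned were those of PBRM1 at 10 µM (0.0059 with upper-quartile factors, 0.10 with the trend removed, 0.16 without 10 µM replicate 1 and 0.18 with both), SMARCA4 with the trend removed (0.028 at 5 µM, 0.0050 at 10 µM, and 0.026 at 5 µM also without 10 µM replicate 1), BRD7 between the doses with the trend removed (0.038), SS18 at 5 µM without 5 µM replicate 1 (-0.0045) and SMARCB1 at 10 µM without 10 µM replicate 1 (-0.092). With each library left out, SS18 at 5 µM ranged from -0.0045 to 0.045, SMARCB1 at 10 µM from -0.092 to 0.20 and PBRM1 at 10 µM from -0.16 to 0.16.

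Samples with the same replicate number did not deviate together (correlations of -0.05 to 0.03 over genes). Deviations were taken within groups of 3, with 10 µM replicate 1 standing apart, so the correlations cannot decide whether the numbers pair the samples. With a replicate block 1 member (BRD9, 0.27, adjusted p = 0.0475) and 2 other subunits rose at 10 µM, and 0 members were lower between the doses. In that fit 2425 of 16417 genes rose at 10 µM and 689 were lower between the doses.

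Over all genes at 5 µM, 722 rose and 954 fell, against 1217 and 1463 by DESeq2, 1437 and 1593 with the trend removed, 3051 and 3280 with only the groups compared and 2770 and 2951 without 10 µM replicate 1. Between the doses 471 rose and 908 fell, against 1080 and 1382 by DESeq2, 1034 and 1175 with the trend removed, 114 and 221 with only the groups compared, and 1474 and 2576 without 10 µM replicate 1.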
